A study of Mus musculus with 28 samples.

Results

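The Hippo pathway genes Yap1, Wwtr1, Tead1 to Tead4, Lats1, Lats2, Cyr61 and Ctgf were followed through the development of mouse peripheral nerve, 10 of the 41605 genes in the deposited count table. Yap1 and Wwtr1 (which encodes TAZ) are the coactivator genes, the Tead genes encode transcription factors, the Lats genes encode kinases, and Cyr61 (also called Ccn1) and Ctgf (also called Ccn2) are target genes. They were chosen by name for their place in the pathway, with earlier results of these data known. All 10 were among the 17700 genes with enough reads to be tested.

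The study sequenced poly-A RNA of wild-type C57BL/6J mouse nerves with a stranded kit at 7 stages: E13 and E17 in the embryo, the postnatal days P1, P5, P14 and P24, and the young adult at P60. The names E13 and E17 are short labels, which leave off the fraction of a day that the study gives for both embryonic ages. Every stage had 4 libraries, 28 altogether. E13 libraries held various peripheral nerves distal to the dorsal root ganglia, pooled from 2 embryos and not stripped, although their label also reads sciatic nerve. E17 libraries held sciatic nerves pooled from 2 embryos and postnatal libraries held the sciatic nerves of 1 mouse each. Outer layers were stripped off by hand from E17 on, and no animal was perfused, carried a transgene or received a treatment. Each stage had males and females, but the labels do not give the sex of a library, so it was not used.

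The Hippo pathway is a kinase cascade in which MST kinases, with the adaptor SAV1, activate LATS1 and LATS2, and these phosphorylate YAP and TAZ and keep them out of the nucleus. Unphosphorylated YAP and TAZ enter the nucleus and drive transcription from sites bound by TEAD factors, with Cyr61 and Ctgf among the standard targets. In Schwann cells, the glia that ensheathe and myelinate peripheral axons, YAP and TAZ are needed for the sorting of axons and for myelination. Because the pathway acts through phosphorylation and localisation of proteins, transcript levels measure how much of each component's RNA was present and not the activity of YAP or TAZ.

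The coactivators, their TEAD partners and the targets followed different time courses. Wwtr1 and Tead1 transcripts stood highest around birth and fell afterwards, from 319 to 162 CPM (counts of a gene scaled to a common library total) and from 969.7 to 301 CPM between P1 and P60, while Yap1 rose from 129 to 176 CPM. Within the TEAD family, Tead2 had the most reads per length at E13 and Tead1 from E17 on, and Tead4 rose between E17 and P1, from 0.907 to 12.0 CPM. Ctgf stayed below 10 CPM in every library up to P14 and reached 39.4 CPM at P60, 5.88-fold its level at P1. Throughout, CPM values were scaled between libraries by the trimmed mean of M values (TMM), and a mean is given ± SD over the 4 libraries of a stage.

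Since YAP and TAZ act through TEAD sites, upstream sequence of members was searched for the TEAD core motif GGAATG on both strands (CATTCC on the other strand). RefSeq promoter windows (build GRCm38.p6) were at hand for 7 members, and the 250 bases before a transcription start held the motif in 4 of them, Yap1, Wwtr1, Tead3 and Cyr61. Some genes have several windows, and 6 of the 11 windows of these 7 genes held it (54.5%, with the overlapping windows of Wwtr1 holding the same site), against 12.6% of all 32851 windows of that length. Tead2, Lats1 and Lats2 had no match there, which says only that these letters are absent from this window, and a match is not a measured binding site. For each of these 4 genes the first window is printed here 5′ to 3′ up to the annotated start of the gene, with the motif in capitals, because the 4 include the target gene Cyr61 and both coactivator genes. The match began 141 bases before the start in Yap1, 136 in Wwtr1, 182 in Tead3 and, on the opposite strand, 103 in Cyr61. Of the 3 Tead3 windows, 2 held the motif. The second had matches 123 and 114 bases before its own start, on the opposite strand, and another 2 bases after it, all outside the letters printed. The Tead3 sequence is cut at the gene's outermost annotated base, so the motif marked in it begins 170 bases before the end of the letters shown.
Cyr61 (chr3:145649986-145650235, minus strand): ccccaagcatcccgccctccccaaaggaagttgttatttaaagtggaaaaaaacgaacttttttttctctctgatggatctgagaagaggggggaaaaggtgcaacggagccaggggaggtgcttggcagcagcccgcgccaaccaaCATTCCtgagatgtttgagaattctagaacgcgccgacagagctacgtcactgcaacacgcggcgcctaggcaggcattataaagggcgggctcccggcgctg
Yap1 (chr9:8004597-8004846, minus strand): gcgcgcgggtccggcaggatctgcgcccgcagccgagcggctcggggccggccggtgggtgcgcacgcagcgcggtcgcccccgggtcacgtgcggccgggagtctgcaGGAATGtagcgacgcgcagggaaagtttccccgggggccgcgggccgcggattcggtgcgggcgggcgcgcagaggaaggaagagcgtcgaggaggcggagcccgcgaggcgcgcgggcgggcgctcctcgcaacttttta
Wwtr1 (chr3:57575911-57576160, minus strand): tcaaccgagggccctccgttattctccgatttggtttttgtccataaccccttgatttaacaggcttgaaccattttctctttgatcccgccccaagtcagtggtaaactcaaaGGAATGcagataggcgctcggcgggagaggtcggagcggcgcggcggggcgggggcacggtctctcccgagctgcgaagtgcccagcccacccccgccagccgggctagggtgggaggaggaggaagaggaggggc
Tead3 (chr17:28350818-28351055, minus strand): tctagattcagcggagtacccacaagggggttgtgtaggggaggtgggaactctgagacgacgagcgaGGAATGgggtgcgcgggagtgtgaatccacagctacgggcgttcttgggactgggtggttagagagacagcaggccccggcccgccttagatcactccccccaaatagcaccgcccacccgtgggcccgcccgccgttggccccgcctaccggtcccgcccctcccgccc

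Total counts ran from 13899895 (E17 replicate 4) to 37662780 (P5 replicate 2) per library. The member with the fewest reads in a library was Tead4 at E17, with 8 to 39 counts. Among the libraries, 3 stood apart by the slope of their expression on the GC content of transcripts, expressed as a log2 change per 10 percentage points: -0.93 for E13 replicate 1, 0.73 for E13 replicate 4 and -0.43 for replicate 1 of P1, while the remaining 25 lay between -0.16 and 0.20. Members span 43.0% (Lats1) to 58.1% (Tead3 and Tead4) GC, and these 3 libraries held the highest or the lowest value of their stage for several members. The Schwann lineage genes Sox10, S100b, Erbb3 and Cdh19 were detected in all libraries, with summed levels of 207 to 513 CPM at E13 and 1409.5 to 1540.0 at E17. At E13 the nerve label also goes with genes of neuronal cell bodies (Isl1 and Prph), at 169 to 277 CPM against 9.29 to 13.7 at E17, with genes listed here as cartilage markers (Col2a1, Acan and Matn1), at 63.4 to 251 CPM against 38.0 to 47.4, and with skeletal muscle genes (Acta1, Myh3, Myod1 and Ttn; Ckm was higher at E17), at 25.9 to 576 CPM against 3.64 to 19.7 summed over these 5. Col2a1 carried nearly all of the cartilage sum, with 166 ± 77.4 CPM at E13 and 42.4 ± 4.78 at E17. The study uses Col2a1, with Sox9, to label endoneurial fibroblast-like cells of the nerve, so this sum need not come from cartilage. All differences from E13 given here therefore compare different nerves and different tissue makeup as well as ages, which cannot be told apart. In bulk RNA, fewer cells of a type and less RNA per cell cannot be told apart either.

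**Figure D1:**
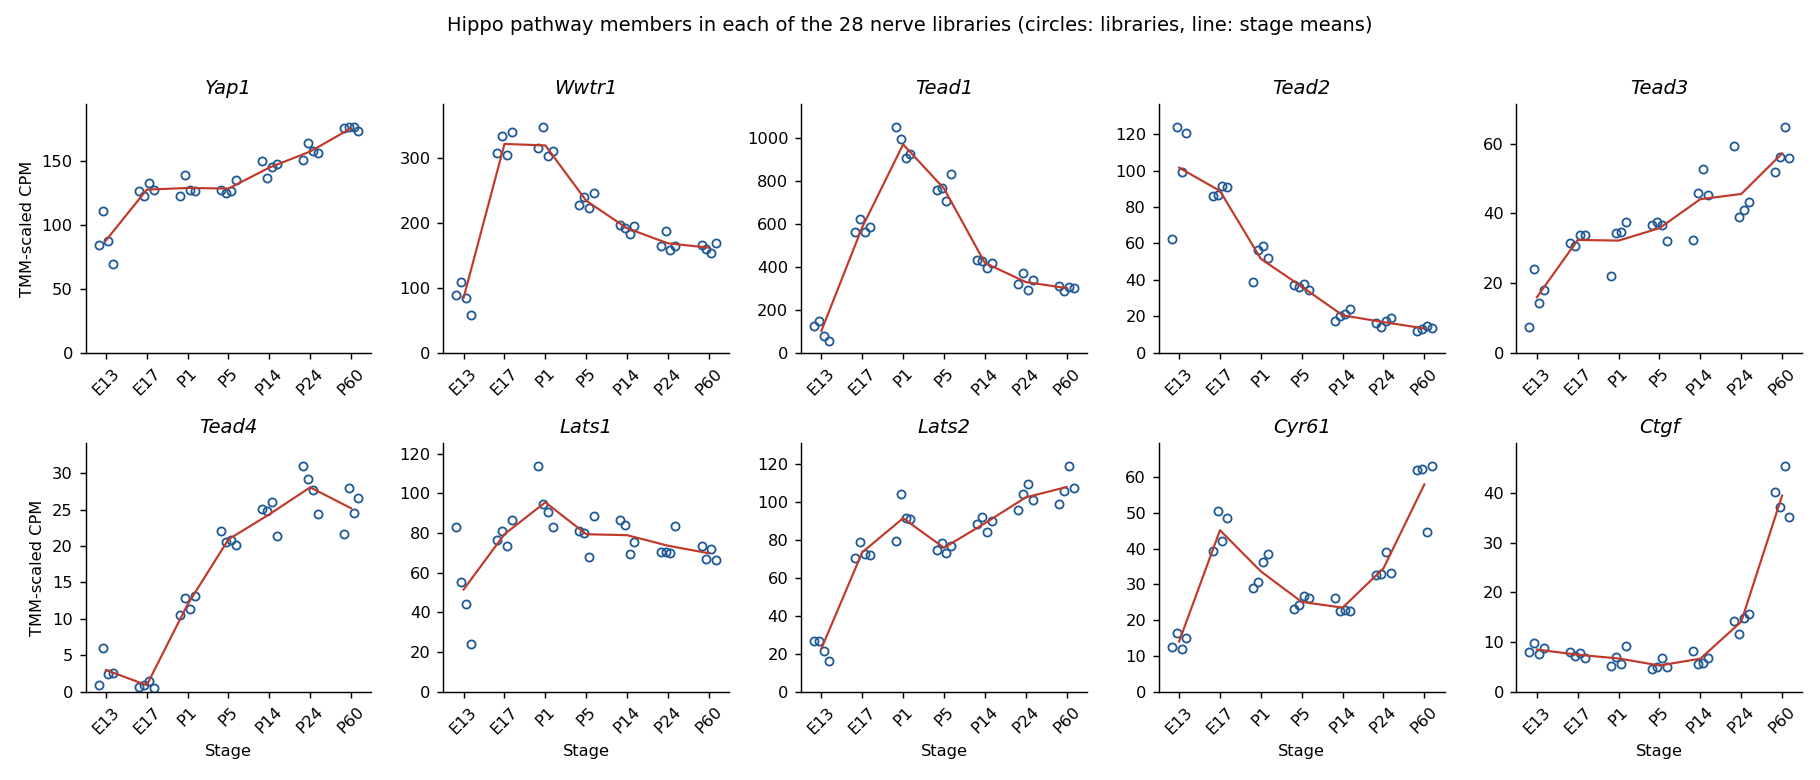
Levels of the 10 members in each library, in TMM-scaled CPM on axes that start at 0 (circles: 28 libraries, 4 per stage; line: stage means). Wwtr1 and Tead1 peak at E17 or P1, Tead2 is highest at E13 and lowest at P60, Tead4 rises between E17 and P1, and Ctgf rises at P24 and P60.

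Every member differed somewhere along the timeline (10 of 10 at an adjusted p under 0.05 in edgeR's quasi-likelihood test over all 7 stages), as did 88.8% of the 17700 genes tested. From E13 to E17, 7 members rose and 1 fell, where 28.1% of all genes rose and 34.1% fell, and the median log2 change was 0.82 over the members and -0.08 over all genes. In that step 4 of 4 Schwann lineage genes and 4 of 5 fibroblast genes (Pdgfra, Dcn, Lum, Col1a1 and Col3a1) rose too, the latter with sums of 1519 to 2590.3 CPM at E13 and 16117 to 18074 at E17, and their part in the members' rises was not tested. Endothelial genes rose in 4 of 5 cases and fell in 1, perineurial genes rose in 2 of 4, pericyte and smooth muscle genes rose in 1 and fell in 2 of 5, macrophage genes fell in 4 of 4, and the part of these was not tested either. From E17 to P1, 3 rose and 2 fell (15.1% and 14.4% of all genes). From P1 to P5, 1 rose and 3 fell (10.3% and 7.33%). From P5 to P14 none rose and 2 fell (15.4% and 14.2%). Into P5, 4 of 4 macrophage, 4 of 5 pericyte and smooth muscle, 3 of 5 endothelial and 1 of 4 Schwann lineage genes rose. Into P14, 3 of 4 perineurial, 3 of 5 endothelial, 3 of 5 pericyte and smooth muscle, 2 of 5 fibroblast and 2 of 4 Schwann lineage genes rose. There 2 of 4 macrophage and 1 of 4 Schwann lineage genes fell. Proliferation genes fell in 4 of 4 cases in both steps, and the part of these lists was not tested. In each of the last steps 2 members rose and none fell, Cyr61 and Ctgf both times, where 2.72% of all genes rose and 2.72% fell in the step into P24, and 6.84% rose and 9.23% fell in that into P60. Between P1 and P60, 5 members rose and 3 fell (30.9% and 30.2% of all genes), with a median log2 change of 0.34 over the members and -0.02 over all genes. With the 4 E13 libraries left out of the fit, 7, 5, 5 and 4 members were called in the steps into P5, P14, P24 and P60 in place of 4, 2, 2 and 2, and the share of all genes called was 35.2%, 46.6%, 14.5% and 31.2% in place of 17.6%, 29.6%, 5.45% and 16.1%.

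**Figure D2:**
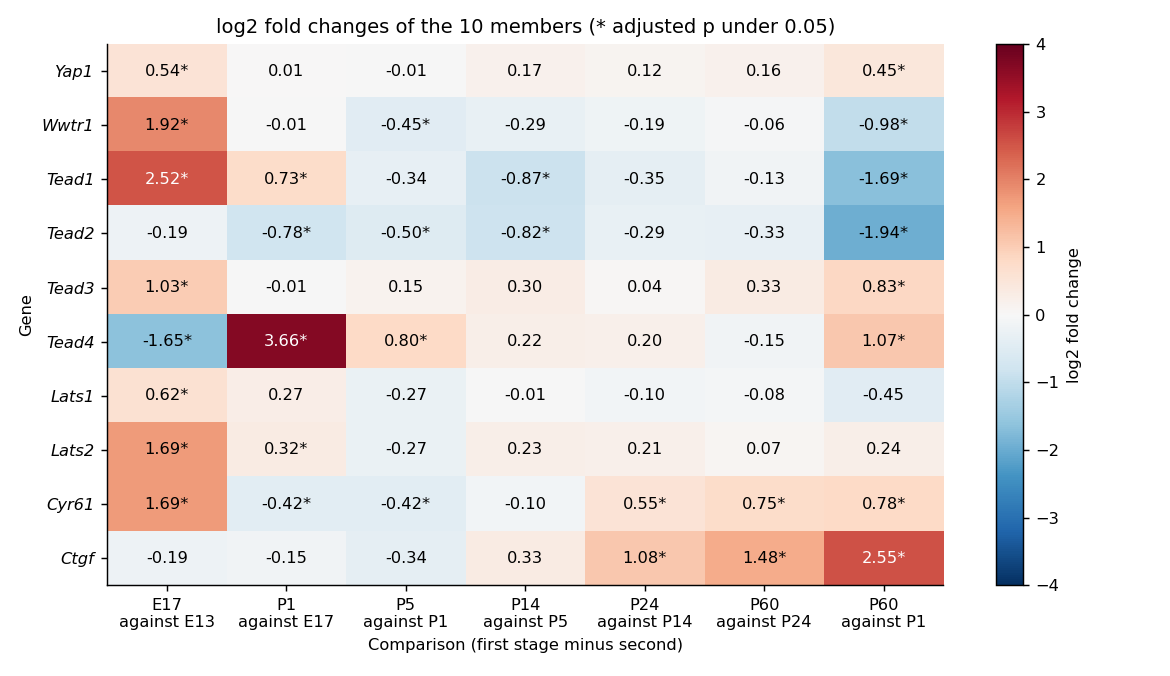
Changes of the 10 members (rows) in 7 comparisons of stages (columns) as log2 fold changes, the first stage named minus the second, with red for higher and blue for lower in the first stage. Asterisks mark an adjusted p under 0.05; the largest change is that of Tead4 between E17 and P1, 3.66.

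Yap1 (ENSMUSG00000053110, chr9:7931999-8004596, GRCm38 as are all gene positions here) was lowest at E13 and highest at P60. Its level was 84.2, 111, 87.3 and 69.4 CPM in the 4 E13 libraries, 127, 123, 133 and 128 at E17 and 123, 139, 128 and 126 at P1. Every E17 library lay above every E13 library, and the rise passed the test (log2 0.54 ± 0.09 (SE), adjusted p = 1.8e-05). E17, P1 and P5 had overlapping libraries, with stage means of 128, 129 and 129 CPM. The values then went to 150.2, 136, 146 and 147 CPM at P14, 151, 165, 158 and 156 at P24 and, in the adult, 176, 177, 177 and 174. Each of these groups lay wholly above the one before it, although none of the single steps passed the test (in other settings of the fit the step into P14 passed in 5 of 11, that into P24 in 0 and that into P60 in 4, and the step into P14 also without E13 replicate 4, adjusted p = 0.047), and the rise from P1 to P60 did, at 1.36-fold (log2 0.45 ± 0.09 (SE), adjusted p = 1.8e-04). Yap1 shares 116 exon bases on the opposite strand with Gm20416, which had no count in any library.

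Wwtr1 (ENSMUSG00000027803, chr3:57455649-57575910) went the other way after birth. Its libraries read 88.1, 109, 84.1 and 57.4 CPM at E13, 308, 333, 304 and 339 at E17 and 315, 347, 303 and 309 at P1. This is a rise of 3.79-fold into E17 (log2 1.92 ± 0.12 (SE), adjusted p = 2.2e-13) with no overlap, and a level at P1 that overlapped that at E17. At P5 it was 227, 239, 223 and 245 CPM, below every P1 library (log2 -0.45 ± 0.12 (SE), adjusted p = 0.0071). It went on to 197, 191, 182 and 195 CPM at P14, 164, 187, 158 and 164 at P24 and, in the adult, 166, 159, 153 and 168. The P14 libraries lay below those of P5 without passing the test (adjusted p = 0.063, and 0.0053 to 0.039 when E13 replicate 1, 2 or 4 was left out, and it passed in 8 of 11 other settings), P24 overlapped with both of its neighbours, and the fall from P1 to P60 was to 0.507 of the P1 level (log2 -0.98 ± 0.12 (SE), adjusted p = 5.0e-08).

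The balance of the 2 coactivator genes followed from these courses. Per kilobase of exon, Yap1 stood at 0.544 ± 0.0559 of Wwtr1 at E13, 0.206 ± 0.0166 at E17 and 0.209 ± 0.00677 at P1, so Wwtr1 had more reads per length at each stage. The ratio was then 0.284, 0.391 and 0.485, and 0.563 ± 0.0272 in the adult. Except for E17 and P1, consecutive stages had no library in common range. An exact two-sided permutation test of 4 against 4 libraries cannot go below p = 0.029, which each of these differences reached. Adjusted over the 49 tests of ratios and shares made here, that is 0.05 and not under the threshold, so all 28 ratios and shares with no overlap count as not passing.

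**Figure D3:**
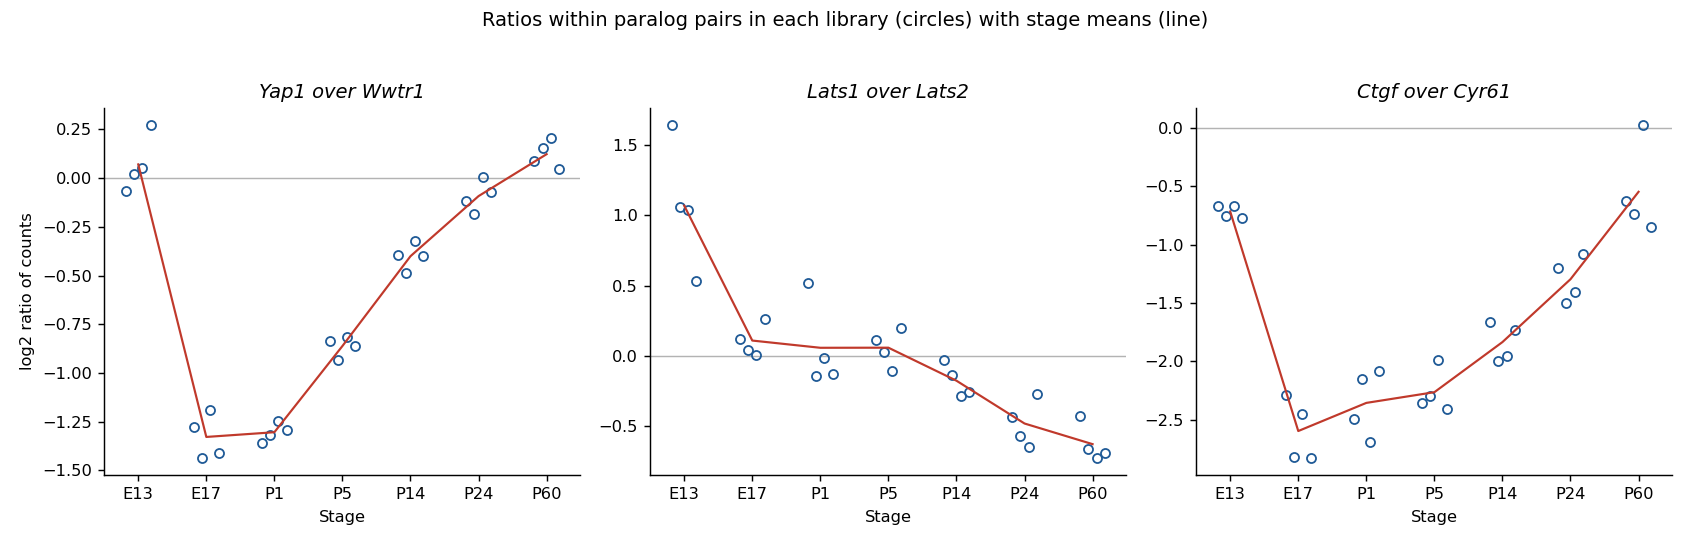
Log2 ratios of read counts within 3 pairs of related genes in each library (circles) by stage, with the line through stage means and a grey line at equal counts. Yap1 over Wwtr1 goes from -1.30 at P1 to 0.12 at P60, Lats1 over Lats2 goes from 1.07 at E13 to -0.63 at P60, and Ctgf over Cyr61 is lowest at E17.

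The TEAD genes encode the DNA-binding partners of YAP and TAZ. Tead1 (ENSMUSG00000055320, chr7:112679318-112906807) changed most in absolute level. Its libraries held 126, 146, 80.5 and 55.2 CPM at E13, 562, 625, 564 and 587 at E17 and 1051, 997, 904 and 927 at P1. The rise was 5.72-fold into E17 (log2 2.52 ± 0.18 (SE), adjusted p = 2.8e-12) and 1.66-fold from there to P1 (log2 0.73 ± 0.17 (SE), adjusted p = 0.0016). At P5 the values were 757, 765, 706 and 831 CPM, all below the P1 libraries, but this step did not pass the test (log2 -0.34, adjusted p = 0.18, and 0.029 without E13 replicate 4, and it passed in 6 of 11 other settings). The fall to 433, 429, 393 and 419.6 CPM at P14 did (log2 -0.87 ± 0.17 (SE), adjusted p = 2.8e-04). P24 had 329 CPM, with every library below those of P14, and this step did not pass (log2 -0.35, adjusted p = 0.31, and it passed in 4 of 11 other settings). P60 had 301 CPM, and Tead1 at P60 was at 0.311 of its P1 level (log2 -1.69 ± 0.17 (SE), adjusted p = 3.3e-09), still above every E13 library.

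Tead2 (ENSMUSG00000030796, chr7:45215753-45233644) had a lower mean at each successive stage. E13 libraries varied widely, at 62.6, 124, 99.1 and 121 CPM, and overlapped with those at E17, at 86.3, 86.6, 91.6 and 90.8. The lowest E13 value, in replicate 1, came from the library with the steepest negative slope on GC content, and Tead2 has 57.9% GC. Later groups did not overlap with the one before down to P14: 39.0, 56.6, 58.8 and 51.9 CPM at P1, 37.0, 36.0, 37.8 and 34.6 at P5 and 17.3, 20.1, 21.1 and 23.97 at P14. All 3 of these steps passed the test, with log2 changes of -0.78 (adjusted p = 2.7e-04), -0.50 (adjusted p = 0.022) and -0.82 (adjusted p = 2.1e-04). Proliferation genes (Mki67, Top2a, Cdk1 and Ccnb1) fell in 4 of 4 cases in each of the same steps, with sums of 2041 to 2129 CPM at E17 and 107 to 143 at P14, after rising in 4 of 4 cases from E13 to E17, and their part in the fall of Tead2 was not tested. The step into P5 no longer passed for Tead2 when P1 replicate 2 or 3, or P5 replicate 2 or 4, was left out, with adjusted p from 0.054 to 0.074. At P60 it stood at 12.2, 13.3, 14.5 and 13.7 CPM, 0.260 of the P1 level (log2 -1.94 ± 0.16 (SE), adjusted p = 6.0e-11).

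Tead3 (ENSMUSG00000002249, chr17:28331671-28350817) rose slowly with wide spread. It had 7.55, 24.1, 14.2 and 17.998 CPM at E13, 31.5, 30.6, 33.8 and 33.7 at E17 and 22.2, 34.4, 34.7 and 37.6 at P1. The lowest values at E13 and at P1 were both in replicate 1, a pair of the libraries with outlying negative GC slopes, and Tead3 has 58.1% GC. Stage means then went through 35.8, 44.1 and 45.6 CPM to 51.9, 56.3, 64.8 and 55.8 CPM in the P60 libraries. Of the single steps, that from E13 to E17 passed the test (log2 1.03 ± 0.22 (SE), adjusted p = 2.5e-04). From P1 to P60 the rise was 1.78-fold (log2 0.83 ± 0.22 (SE), adjusted p = 0.0018).

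Tead4 (ENSMUSG00000030353, chr6:128224288-128300823) was low before birth. It had 0.894, 6.02, 2.49 and 2.58 CPM at E13 and 0.660, 0.951, 1.51 and 0.503 at E17, where these levels rest on 27 to 149 and 8 to 39 counts. The E13 and E17 libraries overlapped although the fall passed the test (log2 -1.65 ± 0.35 (SE), adjusted p = 2.3e-04). At P1 the libraries held 10.6, 12.9, 11.4 and 13.1 CPM, 12.6-fold above E17 (log2 3.66 ± 0.34 (SE), adjusted p = 2.8e-09). The P5 libraries read 22.1, 20.6, 20.9 and 20.2 CPM and none overlapped with P1 (log2 0.80 ± 0.27 (SE), adjusted p = 0.042). This last call was lost when any 1 of the 8 libraries compared, or any 1 of 8 others (all 4 of P14, P24 replicates 1 and 3, P60 replicates 3 and 4), was left out, with adjusted p from 0.050 to 0.098, and also without TMM scaling (0.11) or without a filter on low counts (0.064). From P5 to P60 stage means stayed between 20.9 and 28.1 CPM with overlapping neighbours, and P60 was 2.10-fold above P1 (log2 1.07 ± 0.28 (SE), adjusted p = 0.0016).

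As shares of the reads per length of the 4 TEAD genes, Tead2 held 66.0% ± 9.70 (SD, n = 4) and Tead1 24.4% ± 11.3 at E13. At E17 the order was turned, with 64.5% ± 1.64 for Tead1 and 27.8% ± 1.13 for Tead2, and no library of one stage reached those of the other. Tead1 had its highest mean at P1, 79.0% ± 3.60, and was 54.8% ± 2.39 at P60. Tead3 and Tead4 went from 5.32% ± 1.21 to 21.004% ± 1.39 and from 3.69% ± 0.386 to 17.3% ± 1.76 over the same span. Tead2 was the smallest share at P60, 6.91% ± 0.286. Each of these differences between stages was one of the 28 with no overlap and an adjusted p of 0.05. The E13 shares of Tead1 ran from 12.4% to 39.2%, lowest and highest in replicates 4 and 1, the libraries with the opposite GC slopes. What those slopes contribute was not tested on the shares.

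**Figure D4:**
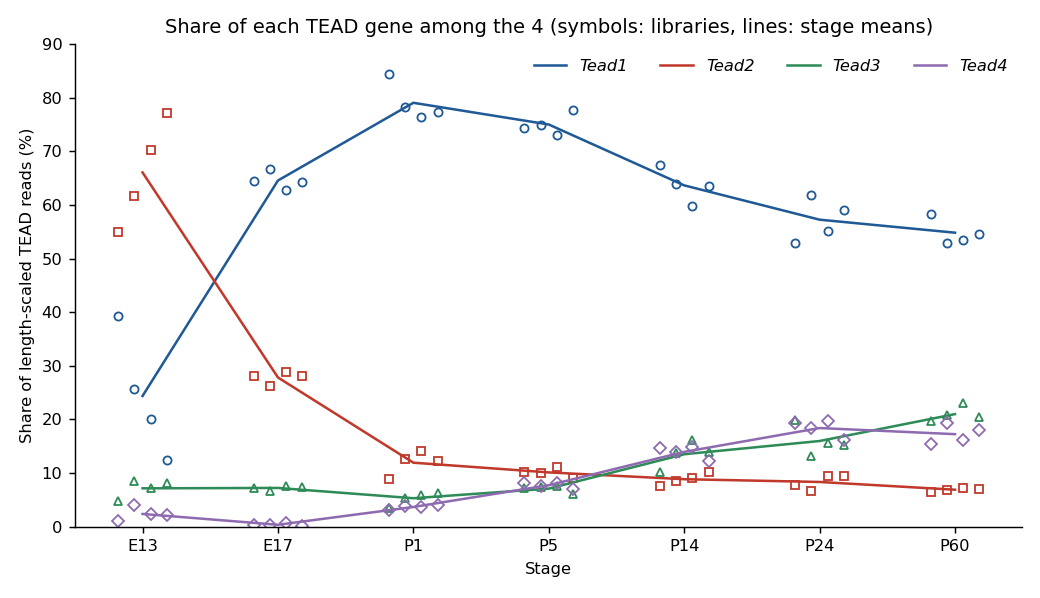
Share of each TEAD gene in the reads per exon length of all 4, in percent, for each library (symbols) and as stage means (lines). Tead2 leads at E13 with 66.0%, Tead1 leads from E17 on with a peak of 79.0% at P1, and Tead3 and Tead4 reach 21.004% and 17.3% at P60.

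LATS kinases phosphorylate YAP and TAZ. Lats1 (ENSMUSG00000040021, chr10:7681214-7716460) had 82.8, 55.4, 44.0 and 23.8 CPM in the E13 libraries, the widest spread of any member at that stage relative to its mean after Tead4. That order, from replicate 1 down to replicate 4, was the order of their GC slopes from the most negative to the most positive, and Lats1 has the lowest GC content of the members, 43.0%. At E17 it had 76.6, 81.2, 73.3 and 86.5 CPM, which overlapped with E13, and the rise passed the test (log2 0.62 ± 0.20 (SE), adjusted p = 0.0092) but not in a fit to these 2 stages alone (adjusted p = 0.14) or without TMM scaling (0.14). After that no single step passed (in other settings E17 to P1 did in 3 of 11 and P1 to P5 in 2 of 11, both among them with the GC trend of each library removed), with stage means of 95.5, 79.4, 78.9, 73.6 and 69.8 CPM in the order of age from P1. Every P60 library lay below every P1 library, at 66.5 to 73.6 against 83.0 to 114 CPM, and the difference missed the threshold (log2 -0.45 ± 0.20 (SE), adjusted p = 0.054). It passed in 8 of 11 other settings of the fit, with adjusted p from 1.1e-04 (GC trend of each library removed) to 0.071, and when E13 replicate 1 or 4 or P1 replicate 4 was left out. P1 and P60 libraries with the same replicate number deviated together from their stage means, and with that number as a block the difference passed narrowly (adjusted p = 0.04996).

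Lats2 (ENSMUSG00000021959, chr14:57689662-57758388) rose into E17, from 26.5, 26.6, 21.4 and 16.5 to 70.3, 78.9, 72.9 and 72.0 CPM, with no overlap (log2 1.69 ± 0.11 (SE), adjusted p = 1.1e-12). It had 79.3, 104, 91.5 and 90.9 CPM at P1, all above the E17 libraries, and this small rise (log2 0.32 ± 0.11 (SE), adjusted p = 0.032) no longer passed when E17 replicate 1, 3 or 4 or P1 replicate 2 was left out, with adjusted p from 0.055 to 0.13, with the GC trend of each library removed (0.054) or without TMM scaling (log2 0.19, adjusted p = 0.22). P5 was lower at 74.8, 78.7, 73.1 and 77.0 CPM, and P14, P24 and P60 stood at 88.8, 102 and 108 CPM, none of them a step that passed the test. In other settings, the step into P5 passed in 7 of 11, that into P14 in 5 and that into P24 in 4. The step into P5 also passed without E13 replicate 1 or 4, and that into P14 without E13 replicate 4 (adjusted p from 0.018 to 0.038). P60 overlapped with P1 (log2 0.24 ± 0.11 (SE), adjusted p = 0.064), a difference that passed in 7 of 11 other settings and with 9 of the 28 libraries left out in turn. Lats2 shares 2955 exon bases on the same strand with Gm49361, a gene model that collected 28982 counts beside 48967 for Lats2, and how the counting split reads between the models is not known here, so the level of Lats2 is uncertain. The stage means of Gm49361 were 13.5 CPM at E13, 45.6 at E17 and 63.7 at P60. Reads per length of Lats1 were 2.08 ± 0.664 times those of Lats2 at E13, 1.03 ± 0.0836 times at E17 and 0.621 ± 0.0602 times at P60, with the same reservation about Lats2.

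Cyr61 and Ctgf encode secreted matricellular proteins of the CCN family and serve widely as readouts of YAP and TAZ. Cyr61 (ENSMUSG00000028195, chr3:145646976-145649981) had an early and a late high. Its libraries read 12.6, 16.5, 12.0 and 14.9 CPM at E13, 39.5, 50.4, 42.1 and 48.6 at E17 and 29.0, 30.7, 36.2 and 38.6 at P1. All E17 libraries were above those of both other stages, with a rise of 3.22-fold (log2 1.69 ± 0.13 (SE), adjusted p = 1.2e-11) and then a fall (log2 -0.42 ± 0.13 (SE), adjusted p = 0.011). After E13, the lowest stages were P5 and P14, at 23.1, 24.3, 26.9 and 26.3 and 26.2, 22.5, 22.8 and 22.5 CPM. The step from P1 to P5 passed the test (log2 -0.42 ± 0.13 (SE), adjusted p = 0.019) but not without P1 replicate 3 or 4 or P5 replicate 1 or 2, with adjusted p from 0.054 to 0.078. P24 had 32.6, 33.0, 39.2 and 33.2 CPM, above every P14 library (log2 0.55 ± 0.13 (SE), adjusted p = 0.0068). At P60 it was 61.9, 62.1, 44.6 and 63.1 CPM, where replicate 3 stood apart and yet above every P24 library (log2 0.75 ± 0.13 (SE), adjusted p = 9.9e-05). From P1 to P60 it rose 1.72-fold (log2 0.78 ± 0.13 (SE), adjusted p = 5.4e-06), and the P60 libraries overlapped with those of E17.

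Ctgf (ENSMUSG00000019997, chr10:24595442-24598683) was low before its late rise. It had 7.95, 9.77, 7.55 and 8.74 CPM at E13, 8.08, 7.13, 7.72 and 6.85 at E17 and 5.14, 6.91, 5.61 and 9.12 at P1, and its lowest stage was P5 at 4.502, 4.93, 6.76 and 4.96 CPM. Neighbouring groups overlapped from E13 through P14, and no step among them passed the test. In other settings the step from P1 to P5 passed in 3 of 11 and that from E13 to E17 in 1 of 10. The P14 libraries held 8.28, 5.65, 5.88 and 6.80 CPM, those of P24 14.2, 11.7, 14.8 and 15.7 and those of P60 40.1, 37.2, 45.4 and 35.0. The last 2 steps were 2.12-fold (log2 1.08 ± 0.17 (SE), adjusted p = 1.2e-04) and 2.80-fold (log2 1.48 ± 0.16 (SE), adjusted p = 2.6e-07), with no overlap in either. Against P1, P60 was 5.88-fold higher (log2 2.55 ± 0.17 (SE), adjusted p = 6.3e-13). The P60 library with the lowest Cyr61, replicate 3, had the highest Ctgf. Ctgf shares 665 exon bases on the opposite strand with Gm15270, which had 160 counts in all beside 6829 for Ctgf.

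The targets were also set against each other. Per length, Ctgf stood at 0.430 ± 0.0171 of Cyr61 at E13, 0.118 ± 0.0224 at E17, 0.289 ± 0.0381 at P24 and 0.497 ± 0.149 at P60. The late rise of both targets came at a time when other cell types' genes rose as well. Between P1 and P60 the perineurial genes Slc2a1, Cldn1, Krt19 and Lypd2 rose in 4 of 4 cases, with summed levels of 72.3 to 100.2 CPM at P1 and 299 to 523 at P60. Endothelial genes (Pecam1, Cdh5, Kdr, Cldn5 and Tek) rose in 5 of 5 cases, with sums of 149.8 to 173 CPM at P1 and 376 to 411 at P60. Pericyte and smooth muscle genes (Rgs5, Pdgfrb, Acta2, Myh11 and Des) also rose in 5 of 5 cases, with sums of 164 to 179.8 CPM and 545 to 598. Of the 5 fibroblast genes, 3 rose and 2 fell, and their sums were 12315 to 17671 CPM at P1 and 4914 to 7066 at P60. Macrophage genes (Cd68, Csf1r, Adgre1 and C1qa) rose in 4 of 4 cases, with sums of 61.7 to 82.3 CPM and 103 to 139. No gene of these lists was at 0 at either stage, and the part of these cell types in the rise of Cyr61 and Ctgf was not tested.

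Immediate early genes, which respond to handling of tissue as Cyr61 also can, gave overlapping sums at P1 and P60, 61.2 to 86.5 and 67.0 to 88.4 CPM over 7 genes (Fos, Fosb, Jun, Junb, Egr1, Ier2 and Atf3), of which 2 rose and none fell. These were Atf3 (log2 0.53, adjusted p = 0.0090) and Junb, from 0.712 ± 0.360 CPM at P1 and 2.45 ± 0.710 at P24 to 6.57 ± 1.96 at P60 (log2 3.19 ± 0.42 (SE) against P1, adjusted p = 2.6e-07). The sums were highest at E17, at 150.1 to 199 CPM against 76.8 to 88.1 at E13, where Cyr61 had its early high, and Atf3 alone made up 97.9 CPM of this. Endothelial genes also had sums of 151 to 203 CPM at E13, 257 to 309 at E17 and 149.8 to 173 at P1, with 4 of 5 higher at E17 than at E13 and 4 of 5 lower at P1 than at E17. The part of both lists in the E17 level of Cyr61 was not tested. In the step into P24, 1 of 4 perineurial, 1 of 5 fibroblast and 1 of 7 immediate early genes rose. In that into P60, 1 of 4 perineurial, 1 of 5 endothelial and 1 of 7 immediate early genes rose, and 1 fibroblast gene rose and 2 fell. Pericyte and smooth muscle genes and macrophage genes had no call in either step.

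Beyond the 10 members, 32 genes upstream of YAP and TAZ were tested: core kinases and adaptors, FERM and angiomotin family proteins, and the FAT and DCHS cadherins. From E13 to E17, 15 rose and 11 fell (28.1% and 34.1% of all genes), with a median log2 change of 0.19 against -0.08 over all genes. Mob1a, a LATS coactivator, went from 90.1 ± 28.7 to 205 ± 8.61 CPM (log2 1.18 ± 0.15 (SE), adjusted p = 1.3e-07), and the kinase gene Taok1 from 69.6 ± 46.0 to 173 ± 8.24 CPM (log2 1.31 ± 0.25 (SE), adjusted p = 4.9e-05). The atypical cadherin gene Fat4 fell from 93.0 ± 30.5 to 23.4 ± 3.20 CPM (log2 -1.99 ± 0.22 (SE), adjusted p = 9.2e-09), and Fat2 from 7.82 to 0.0446 CPM. From E17 to P1, 5 rose and 3 fell (15.1% and 14.4%), led by Ptpn14, a phosphatase gene whose product binds YAP, from 72.3 ± 2.39 to 173 ± 12.98 CPM (log2 1.26 ± 0.12 (SE), adjusted p = 2.9e-09), and Wwc2, from 57.4 to 113 CPM (log2 0.98). The falls there were led by the cadherin gene Dchs1 (log2 -0.95) and the FERM protein gene Frmd6 (log2 -0.59).

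After birth, the share of upstream genes called in single steps lay near that of all genes. In the step into P5, 4 rose and 1 fell of 32 (10.3% and 7.33% of all genes), into P14 4 rose and 4 fell (15.4% and 14.2%), into P24 1 rose and 1 fell (2.72% each), and into P60 2 rose and 3 fell (6.84% and 9.23%). The kinase gene Taok3 rose in the first of these (log2 0.71 ± 0.11 (SE), adjusted p = 3.4e-05) and again in the second (log2 0.67 ± 0.11 (SE), adjusted p = 2.6e-05), and the LIM protein gene Ajuba rose in the first (log2 0.42 ± 0.14 (SE), adjusted p = 0.031). Amotl2, which encodes an angiomotin that holds YAP outside the nucleus and is itself a target gene, rose from P5 to P14 (log2 0.85 ± 0.11 (SE), adjusted p = 7.4e-07) and from P24 to P60 (log2 0.48 ± 0.11 (SE), adjusted p = 0.0022), reaching 177 ± 16.5 CPM. Fjx1, which encodes a kinase of FAT and DCHS cadherins, fell from P1 to P5 (log2 -0.51) and from P5 to P14 (log2 -1.16), and Dchs1 fell from P5 to P14 (log2 -0.78). The cadherin gene Dchs2 was the one riser from P14 to P24 (log2 1.09 ± 0.22 (SE), adjusted p = 0.0018), and Limd1 the one that fell (log2 -0.40 ± 0.10 (SE), adjusted p = 0.018). From P24 to P60 the kinase gene Taok2 rose (log2 0.52), while Fat3 (log2 -1.01) and the kinase gene Map4k4 (log2 -0.46) fell. Between P1 and P60, 10 of the 32 rose and 11 fell (30.9% and 30.2% of all genes), with a median log2 change of -0.10 against -0.02 over all genes. The largest of these changes, among genes above 5 CPM, were those of Dchs2 (5.21 to 25.8 CPM, log2 2.31) and Taok3 (log2 1.61) upwards and of Fjx1 (14.7 to 2.30 CPM, log2 -2.68) and Fat3 (log2 -1.78) downwards. The core genes Sav1 and Mob1a did not pass the test between P1 and P60, with adjusted p of 0.63 and 0.48. Other core genes had means further apart at these stages. Stk3 went from 34.6 ± 3.70 CPM at P1 to 48.4 ± 0.614 at P60 and Stk4 from 54.0 ± 4.86 to 75.1 ± 2.90. Mob1b went from 45.3 ± 9.11 to 25.2 ± 2.5 CPM.

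Other TEAD cofactors were followed as well. VGLL proteins bind TEAD factors in place of YAP or TAZ, and 3 of 4 Vgll genes had enough reads to be tested. Vgll3 went from 45.9 ± 17.5 CPM at E13 to 481 ± 4.38 at E17 (log2 3.38 ± 0.19 (SE), adjusted p = 1.6e-14), fell to 287 ± 31.7 at P1 (log2 -0.75 ± 0.17 (SE), adjusted p = 0.0013) and 202 ± 14.1 at P5 (log2 -0.51 ± 0.17 (SE), adjusted p = 0.039), and stood at 128 ± 7.89 at P60 (log2 -1.17 against P1). Vgll4, whose product represses TEAD targets, rose from 56.6 ± 5.26 at P5 to 80.1 ± 8.71 at P14 (log2 0.50 ± 0.15 (SE), adjusted p = 0.011) and from P1 to P60 (log2 0.98 ± 0.15 (SE), adjusted p = 2.2e-06). Vgll2 was at 2.84 ± 2.94 CPM at E13, where 1 library held 179 of its 293 counts in the whole series, and had no count from P1 on.

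Among 20 further genes that serve as YAP and TAZ targets in other cell types, 19 were tested. From E13 to E17, 10 rose and 7 fell, where 28.1% and 34.1% of all genes did, with a median log2 change of 0.61 against -0.08 over all genes. From E17 to P1, 3 rose and 7 fell, where 15.1% and 14.4% of all genes did, with medians of -0.38 and 0.00044. Arhgef17 rose in the first of these from 50.7 ± 20.3 to 115 ± 10.5 CPM (log2 1.18 ± 0.20 (SE), adjusted p = 1.6e-05) and Tgfb2, the TGF-beta 2 gene, fell from 25.4 ± 12.2 to 6.45 ± 1.18 (log2 -1.98 ± 0.27 (SE), adjusted p = 4.4e-07). Ccdc80 also rose in this step (log2 1.21) and Fjx1 also fell (log2 -1.19). In the second, Asap1 rose from 60.2 ± 1.52 to 165 ± 6.07 CPM (log2 1.45 ± 0.12 (SE), adjusted p = 4.9e-10) and Myof, which encodes myoferlin, fell from 53.2 ± 4.62 to 14.9 ± 0.935 (log2 -1.83 ± 0.20 (SE), adjusted p = 6.8e-08), as did Igfbp3, an IGF binding protein gene (log2 -1.06), while Ptpn14, which is on the upstream list too, rose as given above. From E17 to P1, 4 of 5 endothelial, 4 of 4 proliferation, 2 of 7 immediate early and 1 of 4 perineurial genes fell too. Pericyte and smooth muscle genes rose in 1 of 5 cases and Schwann lineage genes in 1 of 4, and the part of these lists was not tested. Single postnatal steps had 3 listed targets up and 2 down into P5 (10.3% and 7.33% of all genes), 5 and 4 into P14 (15.4% and 14.2%), 4 and 1 into P24 (2.72% each), and 4 and 2 into P60 (6.84% and 9.23%). Into P5, Tgfb2 (log2 1.08) and Ptpn14 (log2 0.35) led the rises and Birc5 (log2 -0.81) and Fjx1 the falls. Birc5 (log2 -2.46) and Fjx1 led the falls into P14 as well.

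Between P1 and P60, 9 of the 19 rose and 5 fell (30.9% and 30.2% of all genes), with a median log2 change of 0.31 against -0.02 over all genes. F3, which encodes tissue factor, had 3.47 ± 0.673 CPM at P1 and 61.0 ± 12.8 at P60 (log2 4.13 ± 0.25 (SE), adjusted p = 5.7e-14), after rises into P14 (log2 1.499), into P24 (log2 0.94) and into P60 (log2 1.80). Gadd45b, a stress response gene, went from 0.533 ± 0.244 to 9.66 ± 1.58 CPM (log2 4.18 ± 0.32 (SE), adjusted p = 7.1e-12). Nt5e, which encodes the ectonucleotidase CD73, rose from P5 to P14 (log2 1.51) and from P14 to P24 (log2 1.39), and Crim1 from P24 to P60 (log2 0.89). The largest fall was that of Birc5, the survivin gene, from 46.5 ± 3.27 to 0.677 ± 0.224 CPM (log2 -6.10 ± 0.24 (SE), adjusted p = 1.3e-17). Birc5 is also a gene of dividing cells, and the 4 proliferation genes fell in 4 of 4 cases, with sums of 972 to 1354 CPM at P1 and 3.79 to 5.27 at P60. Fjx1 had the next largest fall of the list (log2 -2.68). The listed targets moved in both directions, where Cyr61 and Ctgf both rose.

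**Figure D5:**
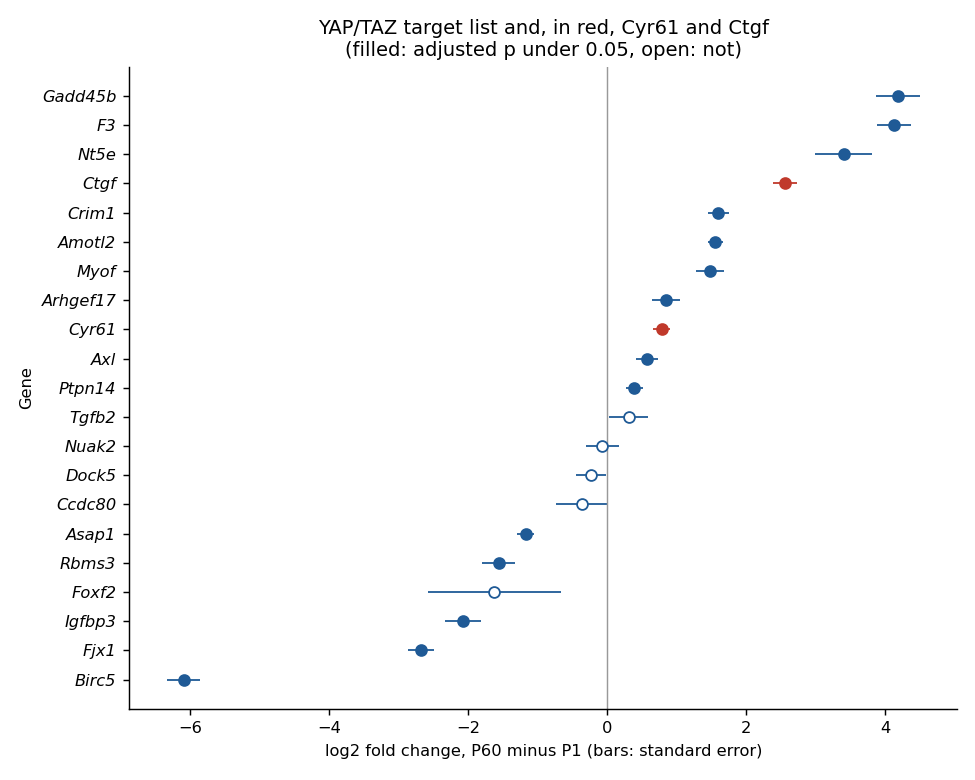
Log2 fold changes between P60 and P1 (P60 minus P1) of 19 further target genes in blue and of Cyr61 and Ctgf in red, with bars of 1 standard error. Filled points passed an adjusted p of 0.05; F3 and Gadd45b lie near 4 on the right and Birc5 at -6.10 on the left.

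A last list held 4 other CCN family genes and 5 genes described as depending on YAP, TAZ or TEAD1 in Schwann cells, of which 8 were tested. From E13 to E17, 7 of the 8 rose and none fell (28.1% and 34.1% of all genes; median log2 change 1.65), and from E17 to P1, 4 rose and none fell (15.1% and 14.4%; median 0.62). Egr2, the regulator of myelin genes, went from 1.43 ± 0.278 to 27.0 ± 5.52 CPM (log2 4.24 ± 0.19 (SE), adjusted p = 2.8e-16) and on to 270.1 ± 50.6 (log2 3.32 ± 0.17 (SE), adjusted p = 6.5e-15). Pmp22, a gene of compact myelin, went from 912 ± 39.1 CPM at E17 to 7690.4 ± 1476 at P1 (log2 3.08 ± 0.14 (SE), adjusted p = 1.2e-15) and on to 26974 ± 355 at P5 (log2 1.81) and 51919 ± 3036 at P14 (log2 0.94). Itga6, which encodes a laminin receptor subunit, rose from 112 ± 34.0 to 1806 ± 28.3 CPM (log2 4.01 ± 0.16 (SE), adjusted p = 1.5e-17) and fell from P24 to P60 (log2 -0.72 ± 0.14 (SE), adjusted p = 4.2e-04). Over the same E13 to E17 step 4 of 4 Schwann lineage genes rose, and what the share of Schwann cells adds to these changes was not tested.

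The later course of this list was mixed. Into P5, 3 rose and none fell (10.3% and 7.33% of all genes), into P14 2 rose and 2 fell (15.4% and 14.2%), into P24 none rose and 1 fell (2.72% each), and into P60 2 rose and 4 fell (6.84% and 9.23%). Egr2 fell from P5 to P14 (log2 -0.68) and rose from P24 to P60 (log2 0.47). Gnb4, a G protein subunit gene, fell from P5 to P14 (log2 -0.50 ± 0.08 (SE), adjusted p = 3.9e-05) and from P14 to P24 (log2 -0.54 ± 0.08 (SE), adjusted p = 1.4e-04), and stood at 45.6 ± 1.23 CPM at P60 against 111 ± 8.87 at P1. The CCN family genes took separate paths. Ccn3 rose from 46.3 ± 5.31 CPM at P1 to 141 ± 4.79 at P5 (log2 1.60 ± 0.22 (SE), adjusted p = 3.9e-06), and Ccn4 rose from P5 to P14 (log2 0.52) and fell from 103 ± 11.7 CPM at P24 to 40.3 ± 7.99 at P60 (log2 -1.35 ± 0.20 (SE), adjusted p = 1.3e-05), in the step in which Cyr61 and Ctgf rose. Between P1 and P60, 3 of the 8 rose and 3 fell (30.9% and 30.2% of all genes), led by Pmp22 (log2 2.23) and Ccn3 (log2 1.38) upwards and by Gnb4 (log2 -1.28) and Itga6 (log2 -1.16) downwards.

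The genes whose levels ran most alike were found for each member by Pearson's r of log2 CPM over the 28 libraries, among 10013 protein-coding genes whose mean reached 10 CPM. These values describe shared time courses, since the points share stages and libraries. For Yap1 they were Ahnak (r = 0.97), Syne2 (r = 0.96) and Parp4 (r = 0.96), and for Wwtr1 Vcl (r = 0.98), Sash1 (r = 0.98) and Tgfbr3 (r = 0.98). Tead1 ran most like Igsf11 (r = 0.98), Srgap2 (r = 0.98) and Plekha1 (r = 0.98). For Tead2 the nearest were Cenpt (r = 0.98), Cdc25a (r = 0.98) and Rhno1 (r = 0.98). Tead3 was closest to Tln1 (r = 0.98), Pbxip1 (r = 0.97) and Pkd1 (r = 0.97), and Tead4 to Slc36a2 (r = 0.97), Mras (r = 0.96) and Efcc1 (r = 0.96). Lats1 ran with Ubr3 (r = 0.97), Med1 (r = 0.97) and Med13 (r = 0.96), and Lats2 with Gm49361 (r = 0.99), Sgms1 (r = 0.98) and Plscr4 (r = 0.98), the first being the overlapping gene model. Cyr61 and Ctgf had looser neighbours, Pcgf5 (r = 0.92), Spata13 (r = 0.91) and Pcnt (r = 0.89) for Cyr61 and C3 (r = 0.94), Fxyd5 (r = 0.93) and Gstm1 (r = 0.92) for Ctgf. Among the members themselves, Wwtr1 and Tead1 were the closest pair (r = 0.95), and Cyr61 and Ctgf had r = 0.57.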

How the data were processed

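Raw counts of reads for each gene, as deposited, were analysed; the authors made them from single-end reads of stranded poly-A libraries with STAR 2.6.1c and featureCounts without normalisation. The submitters' processing notes name GRCm38.p5, whereas the study's methods name a human build. Strand and multimapping settings of the counting are not given in the sources used here. Of 41605 gene identifiers, 41519 were matched to GENCODE M21 (GRCm38) for symbols, positions, exon lengths and GC content.

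Genes were filtered with filterByExpr (17700 kept), scaled by TMM and tested with the quasi-likelihood test of edgeR 4.0.16 in R 4.3.3, with all 28 libraries and stage as the only term. A gene was called at a Benjamini-Hochberg adjusted p under 0.05. Ratios and shares were tested by exact permutation (SciPy 1.17.1). The members and lists were chosen with earlier results of these data known. From each list the text names the 2 largest rises and 2 largest falls per comparison among called genes whose higher stage reached 5 CPM. It also names the core genes Sav1, Mob1a, Stk3, Stk4 and Mob1b, chosen after their values were seen. Libraries of 2 stages with the same replicate number were checked for shared deviations from their stage means over genes with a mean log2 CPM over 3: every correlation was over 0.1 in 2 of 7 comparisons, E17 with P1 and P1 with P60. The labels name nothing that the number marks. Alternatives used DESeq2 1.42.0 and limma 3.58.1. Some genes of the Schwann lineage and neuronal cell body marker lists are not reported here, and the sums and counts of these 2 lists cover the genes named only. The pipeline was tested on simulated data. P-values set a difference between stages against the spread between libraries. In the edgeR fit that spread is estimated from all 28 libraries, E13 among them. Libraries of E13 and E17 are pools of 2 embryos, so their spread is not that between single animals.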

Additional observations from a re-analysis of the deposited data

Results flagged for a closer look

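In 5 of 70 groups of 4 libraries, 1 library lay far from the other 3 for a member, by Dixon's test at the 95% level, where chance gives about 3.5 groups. Cyr61 made up 3 of them: 26.2 CPM in P14 replicate 1 against 22.5 to 22.8 in the others, 39.2 CPM in P24 replicate 3 against 32.6 to 33.2, and 44.6 CPM in P60 replicate 3 against 61.9 to 63.1. Tead3 had 32.2 CPM in P5 replicate 4 against 36.7 to 37.5. Lats1 had 83.6 CPM in P24 replicate 4 against 69.9 to 70.6. The calls of Cyr61 between P14 and P24 and between P24 and P60 were kept when any 1 of the libraries compared was left out.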

How the results depend on the processing

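The number of members called, and of ratios passing, stayed within 1.5 times of that reported in 73 of 96 alternatives other than those that left out 1 library. Asking also for a change of at least 2-fold left 1 member in the step into P1, 0 into P5, 0 into P14, 1 into P24, 1 into P60 and 4 between P1 and P60. Without the E13 libraries in the fit the counts were 7 into P5, 5 into P14, 5 into P24 and 4 into P60, and without P1 replicate 1 and E13 replicates 1 and 4 together they were 7, 5, 5 and 4. With limma-voom and sample quality weights they were 7, 6, 5 and 5. The share of all genes called was higher too, at 35.2%, 46.6%, 14.5% and 31.2% without E13 and 38.1%, 51.2%, 19.3% and 32.6% with limma-voom, against 17.6%, 29.6%, 5.45% and 16.1%. From P5 to P14, DESeq2 gave 5 and a fit to the 2 stages alone 7, which gave 4 from P14 to P24. With the GC trend of each library removed, 4 were called from P24 to P60. The cause of these differences was not tested. Except for the reported fit, the fit without E13 and limma-voom, no share of all genes called is given here beside the counts of members. Those counts, also with a minimum fold change or with 1 library left out, are therefore no result about the members in particular. With any 1 of the 28 libraries left out the counts ran from 8 to 9 (E13 to E17), 4 to 5 (E17 to P1), 1 to 6 (P1 to P5), 2 to 5 (P5 to P14), 2 to 2 (P14 to P24), 2 to 3 (P24 to P60), 8 to 10 (P1 to P60) and 9 to 10 (any stage, 9 without E13 replicate 3). From P1 to P5, 1 was called without P1 replicate 3 or P5 replicate 2, 2 without P1 replicate 2 or 4 or P5 replicate 1 or 4, and 5 and 6 without E13 replicates 1 and 4. The count of 5 from P5 to P14 came without E13 replicate 4. No fold change of a called member turned its direction in any setting. Scaling by library size alone, without TMM, put the median log2 change of all genes at -0.33 from E13 to E17 and -0.22 from P1 to P60, against -0.08 and -0.02 with TMM, and in the first of these Lats1 was no longer called (log2 0.36) while Tead2 and Ctgf were.

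For the ratios and shares, adding 1 count to each gene brought 29 of 49 differences under the threshold where none had been, since the adjusted p of 0.05 lies on it. With 1 library left out none could pass (0 to 0), which says nothing about their stability. Same-numbered libraries had r from -0.45 to 0.67 over 28 pairs (17 over 0.1). In the 2 comparisons in which all 4 pairs were over 0.1, the replicate block left the 5 calls from E17 to P1 as they were and added Lats1 between P1 and P60, for 9 in all (adjusted p = 0.04996). In the other 5 not every pair was over 0.1, so whether the numbers pair the libraries there was not settled. The block changed no call of a member in these 5. Depth limits Tead4 before birth most, with 8 counts in its lowest library.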
